A study of Arabidopsis thaliana with 12 samples.

Results

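The comparison set amp1-13 mutant seedlings against wild-type seedlings of Arabidopsis thaliana, both grown with the solvent DMSO alone. Its samples were chosen by their titles: 3 arrays of amp1-13 in DMSO and 3 arrays of wild type in DMSO, which make 6 of the 12 arrays of the series. The other 6 arrays held amp1-13 and wild type, 3 each, grown with 30 µM hyperphyllin, a small molecule. Both genotypes had the Col-0 background. All seedlings were 10 d old, were grown in liquid half-strength MS medium with sucrose in multiwell plates and were harvested whole, and the DMSO medium held 1% DMSO in both genotypes. RNA was measured on Affymetrix AraGene 1.1 ST arrays, and the deposited values are log2 expression levels. The mutant was represented by 1 allele, and the 3 samples of each group are called biological replicates by the labels. The AMP1 transcript was not analysed here, and the genotypes therefore rest on the labels.

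AMP1 (ALTERED MERISTEM PROGRAM 1) encodes a membrane protein of the endoplasmic reticulum that is related to glutamate carboxypeptidases. Loss of AMP1 is known for an enlarged shoot meristem, faster leaf initiation, extra cotyledons and raised cytokinin content, and AMP1 has been linked to translational repression by microRNAs at the endoplasmic reticulum. Transcripts of whole seedlings average over root, hypocotyl, cotyledon, leaf and meristem, so that fewer cells of a type and less RNA per cell cannot be told apart in any value below.

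The wild-type DMSO arrays were not alike. Wild-type DMSO array 1 had a mean correlation of 0.988 with the 3 amp1-13 DMSO arrays and of 0.972 with the other arrays of its own group, whereas wild-type arrays 2 and 3 correlated at 0.993 with each other (Pearson, across genes). On the first principal component of all 12 arrays, which held 40.6% of the variance, wild-type arrays 2 and 3 scored 43.1 and 46.7, while the other 10 arrays lay between -27.6 and 0.84 and wild-type array 1 at -9.56. The median SD of a gene was 0.134 over the amp1-13 arrays and 0.188 over the wild-type arrays, and 0.107 over wild-type arrays 2 and 3 alone. A median SD over 2 arrays tends to be smaller than one over 3, so the last value is not comparable with the others. The labels give no reason to set wild-type array 1 apart. The counts, the gene lists and most single genes are therefore given with all 6 arrays and again without that array.

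With all arrays, 54 of 16746 genes differed between amp1-13 and wild type at an adjusted p under 0.05 (0.322% of the genes tested, limma with Benjamini-Hochberg adjustment). Of these, 43 were higher in amp1-13 (0.257%) and 11 were lower (0.0657%). A gene here is a probe set whose annotation names exactly 1 gene. The differences of the higher genes ran between 0.50 and 1.54 on the log2 scale and those of the lower genes between -1.08 and -0.54, and 13 genes (0.0776%) differed by at least 2-fold, 12 higher and 1 lower. The calls sat close to the threshold, since 48 of the 54 adjusted p-values were above 0.04. At an unadjusted p under 0.05, 2756 genes passed. The arrays of the genotypes did not overlap for any of the 54, as for 15.9% of all genes. Of the 54, 14 have a symbol in the annotation, and the others carry a locus code only.

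AT4G15700 and AT1G26220, which the annotation names by their codes alone, shared the smallest adjusted p of 0.0089 in limma. The log2 level of AT4G15700 was 3.28, 2.89 and 3.42 in amp1-13 arrays 1 to 3, against 1.86, 1.52 and 1.65 in wild-type arrays 1 to 3. Every amp1-13 array lay above every wild-type array, and wild-type array 1 lay with its own group. The difference was 1.52 ± 0.17 on the log2 scale (SE, n = 3 each), or 2.88-fold, and 1.62 without wild-type array 1. All its levels were below the array medians of 4.09 to 4.15. AT1G26220 had 5.22, 5.23 and 5.22 in amp1-13, against 4.41, 3.88 and 4.08 in wild type, with no overlap and with wild-type array 1 the nearest to amp1-13. Its difference was 2.14-fold with all arrays, and 1.24 on the log2 scale without wild-type array 1. This probe set was not the one with the highest mean level for AT1G26220. Another probe set of AT1G26220 had a difference of 0.04 with an adjusted p of 0.881 in limma. Other large differences also belonged to genes without a symbol. AT4G33666 had levels of 6.10, 6.08 and 6.25 in amp1-13, against 5.39, 4.52 and 3.90 in wild type, a difference of 1.54 ± 0.28, and of 1.93 without wild-type array 1. AT1G52342 had 4.68, 5.07 and 5.60 in amp1-13, against 3.95, 3.30 and 3.51 in wild type, a difference of 1.53 ± 0.22, and of 1.71 without wild-type array 1. In both, wild-type array 1 was the wild-type array nearest to amp1-13. AT3G30730 followed with levels of 3.71, 4.60 and 4.38 in amp1-13, against 2.72, 3.03 and 2.69 in wild type, a difference of 1.41 ± 0.25, and of 1.36 without wild-type array 1.

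Among the higher genes with a symbol were 3 of protease families. SBT4.12, a subtilisin-like serine protease, had levels of 8.19, 8.15 and 8.35 in amp1-13, against 7.59, 6.83 and 6.87 in wild type. This was a difference of 1.13 ± 0.20, or 2.19-fold, with an adjusted p of 0.0485 in limma. ATSBT5.2, of the same protease family, had 5.56, 5.72 and 5.64 in amp1-13, against 5.18, 4.95 and 4.68 in wild type. SCPL34, a serine carboxypeptidase-like protein, had 7.71, 7.67 and 7.75 in amp1-13, against 7.36, 7.02 and 6.90 in wild type. In all 3 genes the genotypes did not overlap, and wild-type array 1 was the highest wild-type array. The differences were 0.71 ± 0.13 for ATSBT5.2 and 0.62 ± 0.11 for SCPL34. Without that array they were 1.38 for SBT4.12, 0.83 for ATSBT5.2 and 0.75 for SCPL34.

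Genes of plastid proteins among the higher ones included TAPX and CCB3. TAPX, the thylakoid ascorbate peroxidase that removes hydrogen peroxide at the photosynthetic membrane, had levels of 8.61, 8.68 and 8.57 in amp1-13, against 7.92, 7.88 and 7.83 in wild type. The arrays of each genotype lay close together, with a wide gap between the genotypes. The difference was 0.74 ± 0.09, or 1.68-fold, with an adjusted p of 0.0261 in limma, and it was 0.76 without wild-type array 1. CCB3, an assembly factor for the haem cofactor of the cytochrome b6f complex, had 4.02, 3.75 and 3.77 in amp1-13, against 3.37, 2.85 and 2.69 in wild type, a difference of 0.87 ± 0.16 that was 1.07 without wild-type array 1. AAE15, an acyl-activating enzyme, had levels of 8.44, 8.51 and 8.45 in amp1-13, against 8.03, 7.93 and 7.77 in wild type, and again no arrays overlapped. Its difference was 0.56 ± 0.09, and 0.62 without wild-type array 1.

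The higher genes with a symbol also held SFP1, ATSPS4F, EXGT-A3, CSLA03 and UGT85A2. SFP1, a sugar transporter of the ERD6-like family, had levels of 9.36, 9.92 and 9.59 in amp1-13, against 8.94, 8.96 and 8.84 in wild type. ATSPS4F, a sucrose-phosphate synthase, had 8.16, 8.15 and 8.36 in amp1-13, against 7.69, 7.61 and 7.57 in wild type. The 3 wild-type arrays lay close together in both genes, and the differences of 0.71 ± 0.13 and 0.60 ± 0.11 moved to 0.72 and 0.63 without wild-type array 1. EXGT-A3, a xyloglucan endotransglucosylase that cuts and rejoins wall polymers, had 9.24, 9.55 and 9.30 in amp1-13, against 8.91, 8.28 and 8.51 in wild type. CSLA03, a cellulose synthase-like protein of the glucomannan synthase family, had 5.31, 5.44 and 5.38 in amp1-13, against 4.58, 4.66 and 4.81 in wild type. Wild-type array 1 was the nearest to amp1-13 in EXGT-A3 and the farthest from it in CSLA03. The differences were 0.80 ± 0.14 for EXGT-A3 and 0.69 ± 0.11 for CSLA03, and 0.97 and 0.64 without that array. UGT85A2, a UDP-glucosyltransferase, had 8.31, 8.32 and 8.36 in amp1-13, against 7.83, 7.52 and 7.56 in wild type, a difference of 0.69 ± 0.11, and of 0.79 without wild-type array 1.

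Genes of defence among those higher in amp1-13 included OSM34 and BIK1. OSM34, an osmotin-like protein of the pathogenesis-related class, had levels of 8.32, 8.31 and 8.49 in amp1-13, against 7.37, 7.64 and 7.46 in wild type. Its difference was 0.88 ± 0.16 with an adjusted p of 0.0485 in limma, and it was 0.82 without wild-type array 1, which was the lowest wild-type array. BIK1, a cytoplasmic kinase that relays signals from immune receptors, had 8.55, 8.72 and 8.55 in amp1-13, against 8.15, 7.92 and 8.00 in wild type, a difference of 0.58 ± 0.10, and of 0.64 without wild-type array 1. The genotypes did not overlap in either gene.

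The 11 genes lower in amp1-13 were mostly of low signal: 8 of them, and 5 of the 43 higher genes, had a mean level below the lowest array median. ANX2, a receptor kinase known from pollen tubes, was the only one with a symbol, at 2.00, 1.78 and 1.89 in amp1-13, against 2.48, 2.36 and 2.44 in wild type, a difference of -0.54 ± 0.10, and of -0.51 without wild-type array 1. AT1G02570 had the largest difference of the 11, with levels of 2.26, 2.91 and 2.44 in amp1-13, against 3.48, 3.98 and 3.39 in wild type, a difference of -1.08 ± 0.18, and of -1.15 without wild-type array 1. AT4G28005 had 4.11, 4.04 and 4.16 in amp1-13, against 4.96, 5.02 and 5.14 in wild type, a difference of -0.94 ± 0.12 with an adjusted p of 0.0285 in limma. Its wild-type arrays, the first included, lay together and well above those of amp1-13, and without the first the difference was -0.98. AT1G14600 had 5.80, 5.65 and 5.61 in amp1-13, against 6.30, 6.43 and 6.39 in wild type, with an adjusted p of 0.0328 in limma and a difference of -0.69 ± 0.09, and of -0.73 without wild-type array 1.

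**Figure D1:**
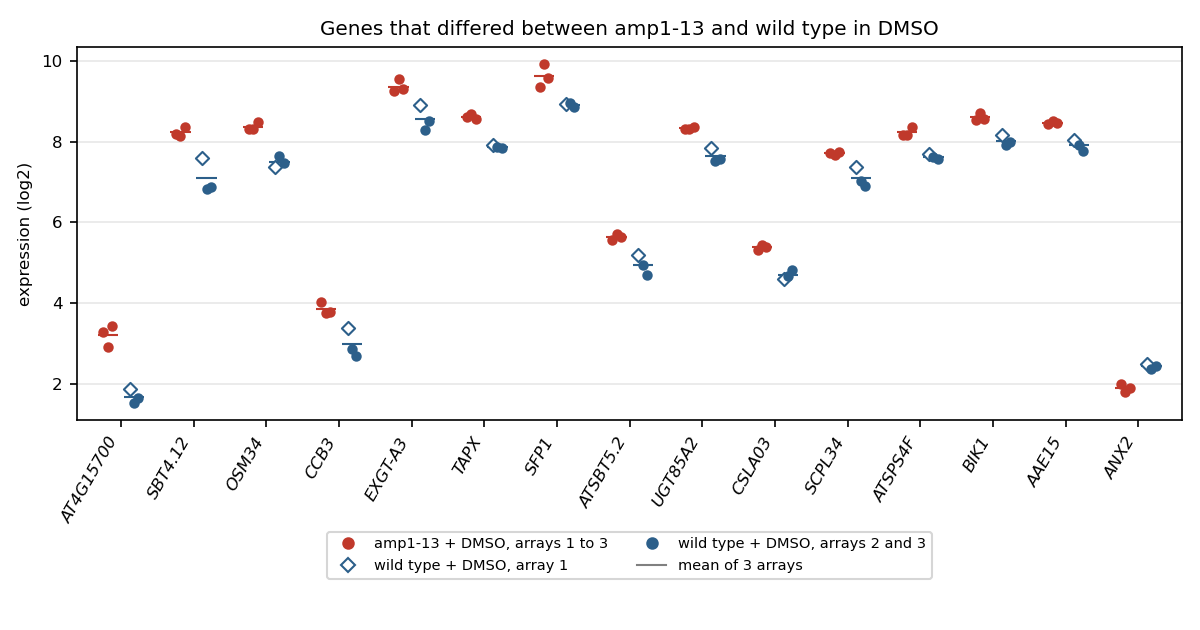
Log2 expression level (y axis) of AT4G15700 and of the 14 genes with a symbol that differed between amp1-13 and wild type in DMSO (x axis). Each point is an array, the open diamond is wild-type array 1 and the short lines are means of 3 arrays. No wild-type point reaches the amp1-13 points of its gene, and ANX2 is the only gene drawn that is lower in amp1-13.

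The number of genes that passed depended on every one of the 6 arrays. Without amp1-13 array 1, 2 or 3 the count was 15, 1 and 0. Without wild-type array 1, 2 or 3 it was 2533, 0 and 6. In the fits with 0 calls, without amp1-13 array 3 and without wild-type array 2, 2229 and 1850 genes had an unadjusted p under 0.05 in limma. Of the 54 genes, 42 passed in 1 of these 6 fits, 10 in 2 fits, 1 in 3 fits (AT1G26220) and 1 in 4 fits (AT4G15700).

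Leaving out wild-type array 1 thus gave 2533 genes (15.1%), of which 1177 were higher in amp1-13 (7.03%) and 1356 were lower (8.1%). All 54 genes of the full comparison were among them with the same direction, and 45 of the 54 had a larger difference. At least 2-fold differences numbered 593, with 267 higher and 326 lower. The higher genes made up 1177 of the 2533 calls without wild-type array 1 and 43 of the 54 calls with all arrays. Signal differed between the directions here too, since 165 of the higher and 519 of the lower genes had a mean below the lowest array median. The median difference over all genes was -0.04 in both fits.

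In the median of these 2533 genes wild-type array 1 lay near the level of amp1-13. On a scale where 0 is the mean of wild-type arrays 2 and 3 and 1 is the mean of the amp1-13 arrays, the median position of wild-type array 1 was 0.989, with quartiles of 0.686 and 1.30. The array lay nearer to amp1-13 in 2191 of the genes (86.5%), and in 1240 it lay beyond the amp1-13 mean. In 342 genes, 202 higher and 140 lower, it was not nearer to amp1-13. In the 54 genes called with all arrays its median position was 0.308, and it was nearer to amp1-13 in 10. These positions follow from which arrays chose the genes and carry no test. The cause of this split among the wild-type arrays was not tested.

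**Figure D2:**
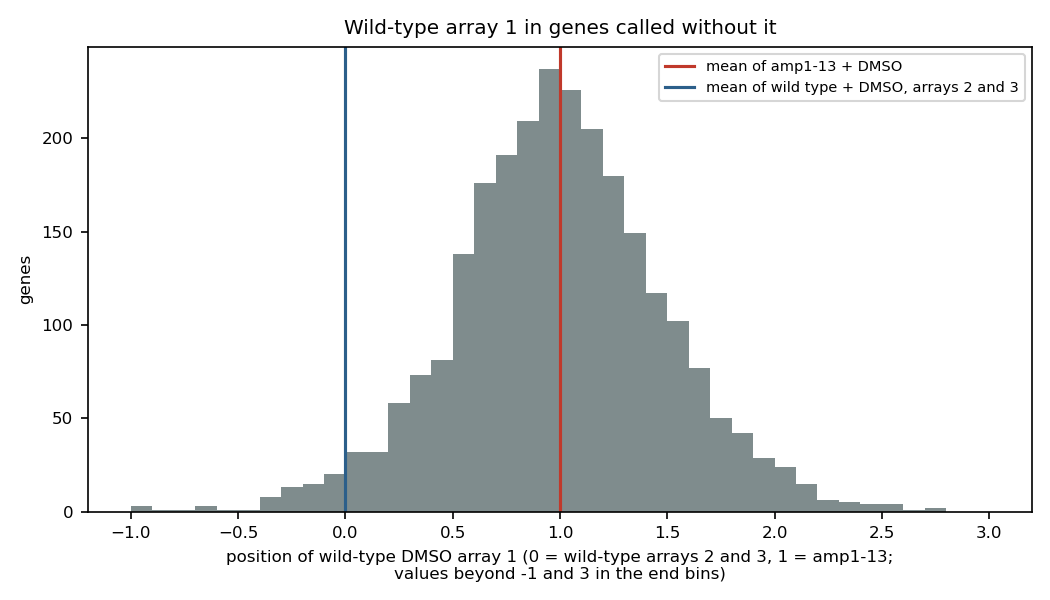
Number of genes (y axis) by the position of wild-type DMSO array 1 (x axis, no unit) in the 2533 genes called without that array, where 0 is the mean of the other wild-type arrays and 1 is the amp1-13 mean. The histogram is centred near 1, with a median of 0.989.

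Among genes with a symbol, those with the largest differences without wild-type array 1 show what this means for single genes. STZ, a zinc-finger repressor of stress responses, had levels of 8.56, 10.38 and 9.27 in amp1-13, against 8.43, 5.81 and 5.96 in wild type. Wild-type array 1 lay just under the lowest amp1-13 array and far above the rest of its group. The difference was 3.52 ± 0.45 without that array (11.4-fold, adjusted p = 4.06e-04 in limma) and 2.67 with it, where the adjusted p was 0.0898. GSTU20, a glutathione transferase, had 7.27, 7.18 and 7.31 in amp1-13, against 7.74, 5.15 and 5.10 in wild type, so that wild-type array 1 was the highest of the 6. AGL24, a MADS-box regulator of flowering, had 5.73, 5.52 and 5.33 in amp1-13, against 6.26, 3.65 and 3.60 in wild type. JAG, a zinc-finger protein of lateral organ growth, had 4.87, 4.28 and 4.34 in amp1-13, against 5.55, 3.30 and 2.32 in wild type. In AGL24 and JAG too the first wild-type array exceeded every amp1-13 array. The differences without that array were 2.13 for GSTU20, 1.90 for AGL24 and 1.69 for JAG, and 1.26, 1.02 and 0.78 with it. MT1B, a metallothionein, had 5.71, 5.52 and 5.83 in amp1-13, against 4.79, 3.56 and 3.98 in wild type, with wild-type array 1 between the others and amp1-13. Its difference was 1.92 without that array and 1.58 with it.

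The other genes of the upper end were CML23, a calmodulin-like protein, ORA47, an AP2/ERF factor of the jasmonate pathway, SWEET10, a sugar exporter, CSLB03, a cellulose synthase-like protein, SFP2, a neighbour of SFP1 in its transporter family, TRM24 and DFR, dihydroflavonol reductase of anthocyanin synthesis. Their differences without wild-type array 1 lay between 1.52 for DFR and 2.22 for CML23, and none of them passed with all arrays. CML23 and ORA47 varied within amp1-13 as well, with levels of 3.91, 5.60 and 4.48 for CML23 and of 3.84, 6.14 and 4.33 for ORA47 in amp1-13 arrays 1 to 3. In wild type CML23 had 3.37, 2.63 and 2.27, and ORA47 had 3.87, 2.92 and 2.49. Amp1-13 array 2 was the highest in both genes, as it was in STZ.

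At the lower end of the genes with a symbol stood genes of auxin. IAA29, an Aux/IAA repressor of auxin signalling, had levels of 6.45, 4.94 and 5.73 in amp1-13, against 6.58, 8.28 and 8.40 in wild type. LBD29, a transcription factor of lateral root initiation, had 4.30, 3.47 and 4.04 in amp1-13, against 3.92, 6.53 and 6.58 in wild type. GH3.1, of the family that joins auxin to amino acids, had 5.22, 4.97 and 4.87 in amp1-13, against 5.13, 7.33 and 7.31 in wild type. Wild-type array 1 lay within or next to the amp1-13 arrays in all 3 genes. Without it the differences were -2.63 ± 0.41 for IAA29, -2.61 for LBD29 and -2.30 ± 0.13 for GH3.1, the last with an adjusted p of 3.56e-06 in limma. With all arrays none of the 3 passed, with differences of -2.04 for IAA29, -1.74 for LBD29 and -1.57 for GH3.1. YUC2, a flavin monooxygenase of auxin synthesis, had 5.29, 5.19 and 4.99 in amp1-13, against 5.39, 6.83 and 6.82 in wild type, a difference of -1.67 ± 0.20 without wild-type array 1 and of -1.19 with it. CLE44, a precursor of a peptide that keeps vascular stem cells undifferentiated, had 4.23, 3.91 and 4.22 in amp1-13, against 3.91, 5.84 and 5.94 in wild type, a difference of -1.77 without wild-type array 1 and of -1.11 with it. The remaining genes of this end were RALFL27, a signalling peptide, the pectin methylesterase ATPMEPCRD, the serine carboxypeptidase-like gene scpl22, the nitrate transporter NRT2.5, FACT, an acyltransferase of wax and suberin, the metallothionein MT1C and the sugar exporter SWEET14. Their differences without wild-type array 1 lay between -1.94 and -1.57. In 23 of the 24 genes at both ends, wild-type array 1 was nearer to amp1-13.

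Gene lists give the same comparison by function. The coverage was low: the 23 lists hold 639 genes, of which 104 had a value, and 18 lists had at least 3 measured members. The other members have no value here, so that a count below describes only the measured ones. Among all genes, 15.9% had arrays that did not overlap with all arrays in use, and without wild-type array 1 15.1% were called, 7.03% higher and 8.1% lower. In addition, 6985 of all genes had a higher mean in amp1-13 and 9761 a lower one. Early auxin response genes had 12 measured members, 3 with a higher and 9 with a lower mean in amp1-13, with a median of -0.50. None of the 12 passed with all arrays and 6 fell without wild-type array 1 (against 8.1% of all genes), where the median was -0.76, and in all 6 that array was nearer to amp1-13. The 6 were IAA29, LBD29, GH3.1, LBD16, GH3.3 and WES1. GH3.3 had levels of 8.96, 7.63 and 8.43 in amp1-13, against 8.83, 9.51 and 9.57 in wild type, and again wild-type array 1 lay with amp1-13. The summed level of the list on the linear scale was 915 to 1629 in amp1-13 and 1449 to 2695 in wild type, where array 1 gave the lowest value. Grown in hyperphyllin, 6 of the 12 had a higher mean in amp1-13, with a median of -0.09, and 1 of the 12 passed there.

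Cytokinin response and metabolism was represented by 4 measured genes of the 41 in its list. None passed with all arrays. UGT76C2, an enzyme that inactivates cytokinins by adding glucose, had levels of 4.49, 4.39 and 4.42 in amp1-13, against 4.02, 3.53 and 3.89 in wild type. The genotypes did not overlap, and the difference was 0.62 with an adjusted p of 0.076 in limma and 0.72 with 0.00462 without wild-type array 1. The response regulator ARR15 had 2.64, 2.01 and 3.47 in amp1-13, against 3.57, 2.10 and 1.91 in wild type, and its arrays overlapped.

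Of the 23 shoot meristem genes in the list, CLV3, LAS and LOB were measured. CLV3, the peptide that limits the stem cell pool, had levels of 2.20, 2.55 and 2.37 in amp1-13, against 3.02, 1.98 and 1.80 in wild type, all below the array medians. LAS, a regulator of axillary meristems, had 3.07, 2.93 and 3.15 in amp1-13, against 3.45, 2.95 and 2.92 in wild type. In both genes wild-type array 1 was the highest of the 6 arrays. None of the 3 passed with all arrays or without wild-type array 1, where CLV3 had a difference of 0.48. The 5 genes of leaf development and phase, among them PHV and YAB3, had a median of 0.02 and no call in either fit.

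Of 4 stomatal lineage genes none passed with all arrays. Without wild-type array 1, STOMAGEN, a peptide that promotes stomata, was higher by 0.49 in amp1-13, and FMA, the gene FAMA of guard cell fate, had a difference of -0.78. FMA had levels of 6.15, 6.02 and 6.05 in amp1-13, against 6.12, 6.79 and 6.90 in wild type. SPCH, the factor that starts the lineage, had 6.42, 5.80 and 6.41 in amp1-13, against 6.95, 6.09 and 5.88 in wild type, with overlap.

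Of 39 nuclear genes of photosynthesis in the list, 7 were measured. Each of the 7 had a higher mean in amp1-13, with a median of 0.39, and in 5 of them the genotypes did not overlap (against 15.9% of all genes), but none passed with all arrays. Without wild-type array 1, 6 of the 7 passed (against 7.03% of all genes called higher) and the median was 0.52, and that array was nearer to amp1-13 in 5 of the 6. PSAN, a subunit of photosystem I, had levels of 8.79, 8.81 and 8.81 in amp1-13, against 8.78, 7.92 and 7.99 in wild type. PSAE-1, a subunit of the same complex, had 10.66, 10.46 and 10.63 in amp1-13, against 10.37, 10.16 and 10.15 in wild type. RCA, rubisco activase, did not pass in either fit. The summed level was 4887 to 5363 in amp1-13 and 3802 to 4827 in wild type, and wild-type array 1 gave the 4827. Grown in hyperphyllin, 5 of the 7 had a higher mean in amp1-13, with a median of 0.03, and none passed there.

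Of 7 genes of chlorophyll synthesis and plastid maintenance, 6 had a higher mean in amp1-13, with a median of 0.53. TAPX and CCB3 passed with all arrays, and CHLM and CHL were added without wild-type array 1. CHLM, a methyltransferase of chlorophyll synthesis, had levels of 7.03, 6.92 and 6.88 in amp1-13, against 7.07, 6.07 and 5.85 in wild type. CHL, the chloroplastic lipocalin, had 5.16, 5.16 and 5.20 in amp1-13, against 5.21, 4.12 and 4.60 in wild type. In TAPX every wild-type array was low, whereas in CHLM and CHL wild-type array 1 was the highest of the 6. Grown in hyperphyllin, 5 of the 7 genes had a higher mean in amp1-13, with a median of 0.10, and none passed there. Of 9 flavonoid genes, 8 had a higher mean in amp1-13 and none passed with all arrays. DFR, UGT78D1 and AT5MAT passed without wild-type array 1, and DFR had 6.83, 7.53 and 7.04 in amp1-13, against 6.60, 5.62 and 5.60 in wild type. The 9 flavonoid genes had a median of -0.03 in hyperphyllin, 4 of them with a higher mean in amp1-13.

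Cell wall genes leaned both ways, with 5 higher and 6 lower means among 11 members. CSLA03 and EXGT-A3 passed with all arrays. Without wild-type array 1, TBL38 also rose and the expansins EXPA4, EXPA7 and EXPA18, which loosen walls, fell. EXPA7, known from root hairs, had levels of 5.58, 5.44 and 5.60 in amp1-13, against 5.13, 6.79 and 6.52 in wild type, and EXPA18 had 4.80, 4.42 and 4.66 in amp1-13, against 4.02, 5.51 and 6.05 in wild type. Wild-type array 1 was the lowest of the 6 arrays in both. The root markers included these expansins and PYK10, an abundant root glucosidase, which had 11.77, 11.84 and 11.76 in amp1-13, against 11.62, 11.81 and 11.84 in wild type. The summed root marker level was 3551 to 3731 in amp1-13 and 3200 to 3832 in wild type, with wild-type array 1 at 3200. Nearly all of this sum came from PYK10. Root and photosynthesis marker levels therefore differed between wild-type array 1 and the rest of its group, and their part in the results was not tested.

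All 6 genes of general stress and touch had a higher mean in amp1-13, with a median of 0.99, and none passed with all arrays. STZ and CML38, a calmodulin-like protein, passed without wild-type array 1. CML38 had levels of 5.48, 6.46 and 5.76 in amp1-13, against 5.86, 4.23 and 4.68 in wild type. PUB23, a ubiquitin ligase of stress signalling, had 8.81, 10.33 and 8.97 in amp1-13, against 8.67, 8.16 and 8.27 in wild type, and amp1-13 array 2 stood above the others. The summed level was 1014 to 3120 in amp1-13 and 497 to 955 in wild type, with wild-type array 1 at 955. In hyperphyllin medium the 6 genes had the opposite sign, with a median of -0.56.

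The remaining lists held few calls. The 4 genes of sugar and nitrogen status all had a higher mean in amp1-13 with no overlap between the genotypes (15.9% of all genes), and SFP1 was the 1 that passed in both fits. OSM34 was the 1 call among 3 genes of jasmonate and defence. Of 4 cell division genes, none passed with all arrays. Without wild-type array 1, AUR1, a mitotic kinase, rose and SIM, an inhibitor of division in endoreduplicating cells, fell. SIM had levels of 5.04, 4.34 and 4.98 in amp1-13, against 4.62, 5.63 and 5.63 in wild type, so that wild-type array 1 lay among the amp1-13 arrays. The unfolded protein response, with 7 genes, had no call in either fit. BIP1, a chaperone of the endoplasmic reticulum, had 6.39, 6.76 and 6.92 in amp1-13, against 5.29, 6.39 and 6.27 in wild type, where array 1 stood below the others. Abscisic acid, heat shock, low oxygen, the clock, gibberellin and brassinosteroid, ethylene and seed genes had no call in either fit. AT5G19740, placed among the AMP1 homologues by its locus, had a difference of -0.24 with all arrays (adjusted p = 0.428 in limma) and of -0.43 without wild-type array 1 (adjusted p = 0.0164).

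**Figure D3:**
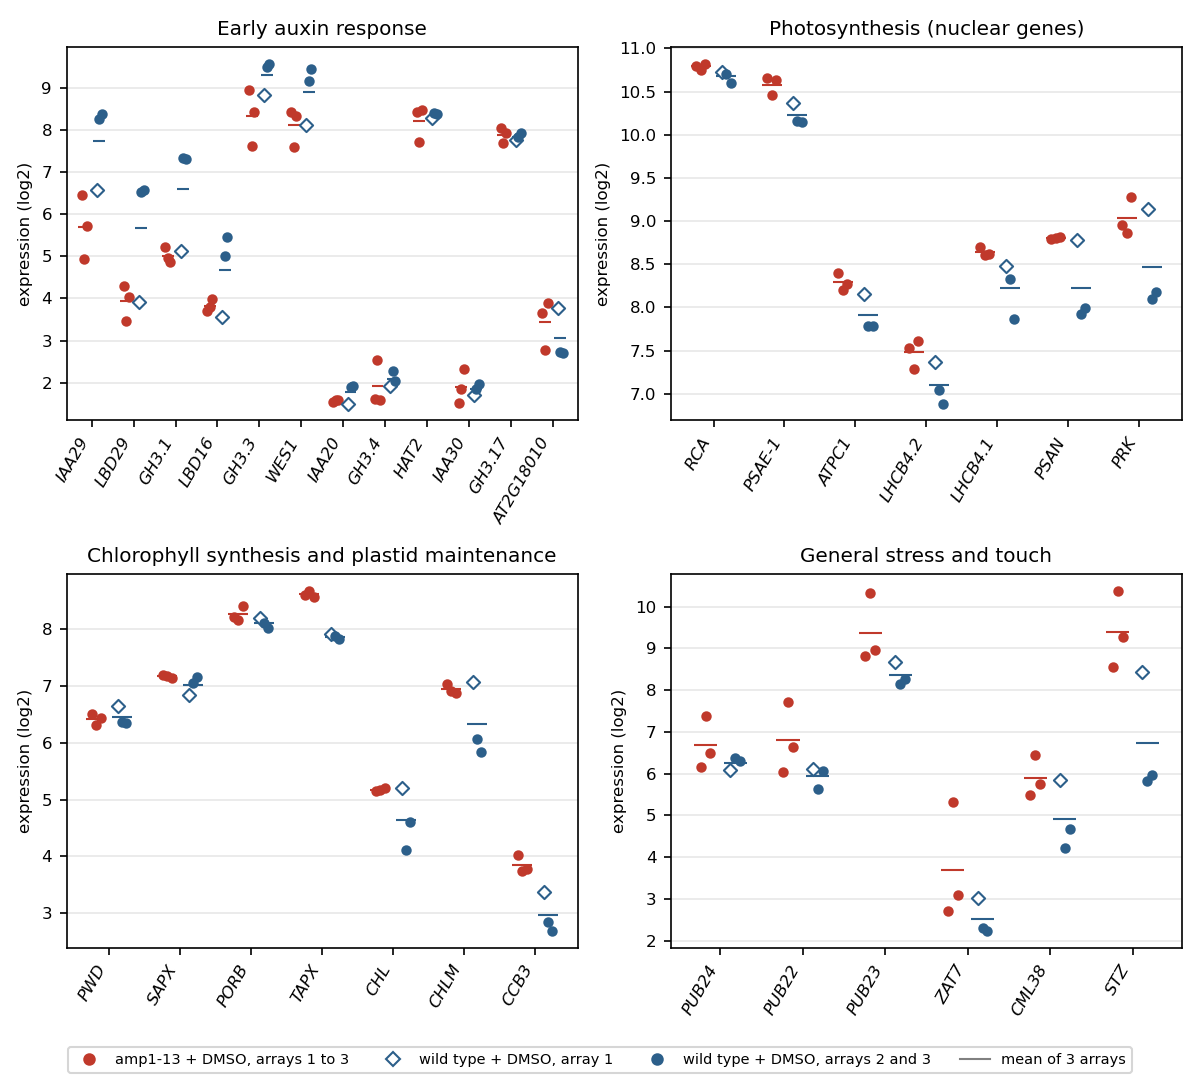
Log2 expression level (y axes) of every measured gene of 4 lists, with amp1-13 arrays left of wild-type arrays for each gene (x axes). Points are arrays, the open diamond is wild-type array 1 and the short lines are means of 3 arrays. In PSAN, CHLM, CHL, GH3.1 and LBD29 the diamond lies at the amp1-13 level, whereas in TAPX it lies with wild type.

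The same genotypes grown in hyperphyllin gave a comparison that shares no array with the one in DMSO, though both used the spread of all arrays in the fit. There, 46 genes differed between amp1-13 and wild type (0.275%), and 21.9% of all genes had no overlap. Of the 43 genes higher in amp1-13 in DMSO, 38 had a higher mean in amp1-13 in hyperphyllin too, 26 of them without overlap, against 50.5% of all genes with a higher mean. Their median difference was 0.28 in hyperphyllin and 0.79 in DMSO. Of the 11 lower genes, 7 had a lower mean in hyperphyllin, 3 of them without overlap, against 49.5% of all genes with a lower mean. The median of the 11 was -0.05 in hyperphyllin and -0.71 in DMSO. The DMSO values chose these genes, so the smaller size in hyperphyllin, seen in 52 of the 54, carries no test.

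4 genes passed in both media, which is 7.41% of the DMSO calls and 8.70% of the hyperphyllin calls. They were AT4G15700, AT2G26690, AT2G25200 and SCPL34. AT4G15700 had a difference of 1.61 in hyperphyllin with an adjusted p of 0.00906 in limma, close to its 1.52 in DMSO. AT2G26690, listed in the gene table as the nitrate and peptide transporter NPF6.2, had DMSO levels of 9.33, 9.44 and 9.60 in amp1-13, against 8.98, 8.56 and 8.49 in wild type. Its difference was 0.74 in hyperphyllin and 0.78 in DMSO. SCPL34 had 0.70 in hyperphyllin and 0.62 in DMSO. TAPX, by contrast, had a difference of 0.02 in hyperphyllin, against 0.74 in DMSO. For TAPX, a test of that difference between the media gave an adjusted p of 0.270 in limma with all arrays. Without wild-type DMSO array 1 the adjusted p of TAPX was 0.0188.

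Without wild-type DMSO array 1, the larger set of genes also leaned the same way in the hyperphyllin arrays. Of the 1177 higher genes, 936 (79.5%, against 50.5% of all genes) had a higher mean in amp1-13 in hyperphyllin. Their median was 0.21, against 0.68 in DMSO. Of the 1356 lower genes, 1099 (81.0%, against 49.5% of all genes) had a lower mean there. Their median was -0.18, against -0.68 in DMSO. In that fit 555 genes (3.31%) passed in hyperphyllin. Of these, 354 were also called in DMSO with the same sign, which is 63.8% of the 555 and 14.0% of the 2533. Another 7 were called with the opposite sign. Among all genes, 15.1% were called in DMSO in that fit. The hyperphyllin arrays are the same in both fits, and only the estimate of the spread differs.

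A test of whether the genotype difference depended on the medium gave 0 genes in limma with all arrays, with a lowest adjusted p of 0.122 and 1386 genes at an unadjusted p under 0.05. Among the 54 genes the lowest adjusted p was 0.168. Without wild-type DMSO array 1, 464 genes passed this test, of which 424 were among the 2533 and 18 among the 54. The DMSO arrays that chose the 54 and the 2533 also enter this test.

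**Figure D4:**
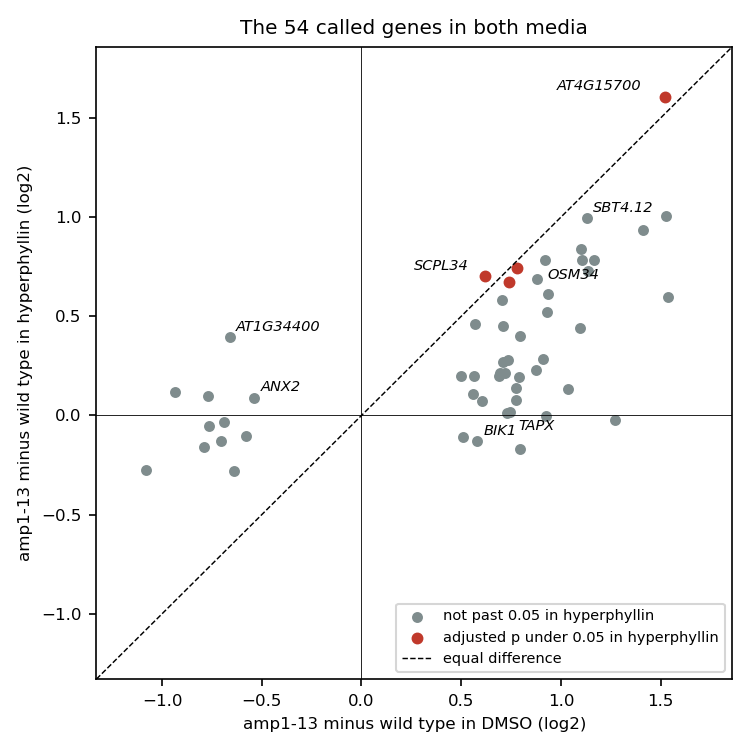
Difference between amp1-13 and wild type (amp1-13 minus wild type, log2) in DMSO (x axis) and in hyperphyllin (y axis) for the 54 genes called in DMSO. Each point is a gene, red points also passed in hyperphyllin, and the dashed line marks equal differences. Most points lie nearer to 0 in hyperphyllin, and AT4G15700 lies at 1.52 and 1.61.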

How the data were processed

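Arrays were grouped and numbered by the labels. The deposited log2 values had been made by the authors with RMA, per the submitters' processing notes, and its software and version are not given in the sources used here. Array medians lay between 4.09 and 4.15, and no further normalization was applied. Of 38408 probe sets, 16746 were annotated with exactly 1 gene and tested, 758 with several were left out, and 20904 were unnamed here. Of the tested probe sets, 16601 matched the RefSeq table of assembly TAIR10.1, used for names only, and 1777 had a symbol. No signal over background was known for a probe, and precision is limited by how many arrays there were.

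The model of limma 3.58.1 (R 4.3.3) held 1 mean for each of the 4 groups and took in all 12 arrays (lmFit, contrasts.fit, eBayes), and p-values were adjusted over the 16746 probe sets by the Benjamini-Hochberg method. A gene was called, and is said to have risen or fallen, at an adjusted p under 0.05. All adjusted p-values are two-sided and come from this fit, or from the same fit without wild-type DMSO array 1. Errors are standard errors of the fit. The scripts were tested on simulated data.

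Genes to name were drawn from sets fixed by rule, and not every member of a set is printed here. Among called genes with arrays that do not overlap, these were the 12 highest, up to 12 lowest and those with a symbol. Without wild-type array 1, they were the 12 highest and 12 lowest with a symbol. Further sets were up to 4 members of each list by smallest p, and AMP1 and its partners where measured. The last set was up to 6 called genes most often called when an array was left out. AT1G26220, AT2G26690, AT2G25200, LBD16, WES1, RCA, DJ1F, AT1G77060 and AT3G54580 were named after their values were seen. A gene with several probe sets is represented by the one with the highest mean, except AT1G26220, whose called probe set is given. The comparison, the lists and these rules were chosen with earlier results of these data known. No sequences were used here.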

Additional observations from a re-analysis of the deposited data

Results flagged for a closer look

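In 3 named genes the arrays of the genotypes did not overlap in either medium and the direction was opposite. AT1G34400 had a difference between amp1-13 and wild type of -0.66 in DMSO and 0.40 in hyperphyllin. The test of that difference between the media gave an adjusted p of 0.168 in limma with all arrays and 0.0089 without wild-type DMSO array 1. BIK1 had 0.58 in DMSO and -0.13 in hyperphyllin, with an adjusted p of 0.270 with all arrays and 0.0132 without that array. APL3, a subunit of ADP-glucose pyrophosphorylase, had 0.16 in DMSO and -0.39 in hyperphyllin, with adjusted p-values of 0.371 and 0.136. None of the 3 passed this test between the media with all arrays. AT1G77060, a called gene outside the naming rules, also had this pattern, with 0.51 in DMSO and -0.11 in hyperphyllin. Its adjusted p-values in that test were 0.270 and 0.0203. In hyperphyllin the difference of BIK1 had an adjusted p of 0.696 in limma with all arrays, and that of AT1G34400 had 0.241. All levels of AT1G34400 were below the array medians. Groups of 3 arrays were not tested for outlying samples.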

How the results depend on the processing

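All counts are of genes at an adjusted p under 0.05 in limma. With all arrays, 54 genes were called between amp1-13 and wild type in DMSO (13 at 2-fold or more), 46 in hyperphyllin and 0 for the interaction. Leaving out 1 array at a time gave 0 to 2533 calls in DMSO, 0 to 593 at 2-fold or more, 1 to 555 in hyperphyllin and 0 to 464 for the interaction, and the upper ends came from leaving out wild-type DMSO array 1. Array weights, which gave that array 0.198, led to 2559 calls in DMSO, 447 at 2-fold or more, 545 in hyperphyllin and 283 for the interaction. With the 6 arrays of the contrast alone, DMSO had 0 calls, also at 2-fold (1764 genes at an unadjusted p under 0.05), and hyperphyllin had 365. With wild-type array 1 alone as wild type in DMSO, an alternative chosen after seeing the data, the count was 23 in DMSO (10 higher and 13 lower), 502 in hyperphyllin and 245 for the interaction. Trend and robust eBayes gave 133 and 26 calls in DMSO, quantile normalization 11 and 5, and the brighter probe sets alone 145 and 21, the second of each pair at 2-fold. All probe sets of the table gave 27 calls in DMSO (6 higher and 21 lower, against 43 higher and 11 lower among the annotated ones), 23 at 2-fold and 26 in hyperphyllin. Same-numbered arrays did not deviate together (correlations of -0.05, 0.01 and 0.09), and with the replicate number as a block the counts were 2 in DMSO, 2 at 2-fold and 19 in hyperphyllin. Without wild-type DMSO array 1, the 2533 calls became 1385 to 2129 when 1 further DMSO array was left out, and 4594 with all probe sets (2414 higher and 2180 lower). Array weights gave 1197 higher and 1362 lower calls, and leaving out wild-type DMSO array 1 gave 1177 and 1356. Lower genes thus outnumbered higher ones in these fits and in the fit of all probe sets with all arrays. With all probe sets but without wild-type DMSO array 1, higher genes outnumbered lower ones. The brighter probe sets without that array also gave more higher than lower calls (1217 and 1178). None of the named genes called with all arrays changed sign under the alternatives run. The causes of these shifts were not tested, apart from the number of arrays or probe sets that an alternative fixes.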

Other observations

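Genes encoded in the chloroplast genome, a list added after the data were seen, had 63 measured members. Of these, 56 had a higher mean in amp1-13 and 7 a lower one, with a median of 0.07, against 6985 of all 16746 genes with a higher mean. In hyperphyllin, 18 of the 63 had a higher mean in amp1-13, with a median of -0.04. None passed in limma with all arrays. Without wild-type DMSO array 1, 7 rose and 1 fell, with a median of 0.11. In that fit 7.03% of all genes were called higher and 8.1% lower. Both directions together were near the background of 15.1%. The summed level was 204213 to 215512 in amp1-13 and 191441 to 211802 in wild type, where array 1 gave the highest value.

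Of the 20 protein-coding genes on each side of AMP1, 22 were tested, and none was called with all arrays. Without wild-type DMSO array 1, 6 were called, 1 higher (DJ1F, 0.89) and 5 lower, against 15.1% of all genes called and 8.1% called lower in that fit. The lowest of these was AT3G54580, with a difference of -2.32.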
